A study of Mus musculus with 15 samples.

Results

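Interferon-stimulated genes, which type I interferon is known to induce, were followed in mouse kidney, and all 9 members were among the 33058 genes in the deposited table of linear transcripts. The genes were Irf7, Stat2, Isg15, Usp18, Oasl2, Rsad2, Ifit1, Ifit2 and Ifit3. They were taken by name, and the level of each was the sum of the FPKM of its transcripts. FPKM counts fragments per kilobase of transcript and per mapped fragments of the library, so levels allow for length and depth but stay relative to the whole library. RNA came from kidney tissue of 15 male mice, C57BL/6 in the labels and C57BL/6J in the study's methods, and the labels name no treatment. They fall into 3 groups of 5 mice aged 3, 12 and 24 months, with a separate library for each mouse. The comparison asks which RNAs differ between young and old kidney, and the groups differ in age alone as far as the labels state. The labels describe ribosomal RNA removal before library construction, whereas the study's methods describe selection of polyadenylated RNA, and the labels name no batch. The titles of all mice begin with 3M, so age was taken from the age label. The libraries held between 5.03 and 8.03 Gb of aligned bases, with medians of 6.04 Gb at 3 months, 7.17 Gb at 12 months and 7.00 Gb at 24 months. The proximal tubule markers, 5 genes that define the main cell type of the kidney cortex, summed to between 1390 and 2010 FPKM in every mouse.

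Interferons are secreted by cells that detect foreign or misplaced nucleic acid. Type I interferon binds its receptor and activates the kinases JAK1 and TYK2, which phosphorylate STAT2. STAT2 and IRF9 are parts of a complex that binds the interferon-stimulated response element (ISRE) in the promoters of responding genes. IRF7 amplifies the response by driving further interferon genes, and USP18 dampens it at the receptor. The IFIT proteins bind viral RNA, viperin (the product of Rsad2) blocks the replication of many viruses, and ISG15 is a ubiquitin-like protein that is attached to other proteins. In the kidney a low tonic level of such genes is usual, and it rises in inflammation and lupus nephritis.

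The promoter letters of these genes are shown because the complex that holds STAT2 binds the ISRE, and binding itself was not measured here. The ISRE was searched as GAAANNGAAA, or TTTCNNTTTC on the other strand, in the 250 bases before the start site in RefSeq promoters of GRCm38.p6. Promoters were held for 8 of the 9 genes, and Usp18 had none in the table. The letters were present in 5 of these 8 genes, namely Isg15, Stat2, Rsad2, Ifit1 and Ifit3, against 3.46% of the 27025 genes with a promoter. The matching stretches follow, 5′ to 3′ along the gene, with the matches in capitals.
Isg15, chr4:156200855-156200916, minus strand: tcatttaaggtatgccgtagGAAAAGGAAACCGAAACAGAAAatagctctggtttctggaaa
Ifit1, chr19:34640765-34640833, plus strand: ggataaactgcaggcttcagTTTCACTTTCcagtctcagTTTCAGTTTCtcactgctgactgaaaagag
Ifit3, chr19:34583353-34583436, plus strand: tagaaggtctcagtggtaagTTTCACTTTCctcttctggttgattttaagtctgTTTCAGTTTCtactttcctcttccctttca
Stat2, chr10:128270256-128270305, plus strand: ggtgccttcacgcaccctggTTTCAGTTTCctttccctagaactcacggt
Rsad2, chr12:26456543-26456592, minus strand: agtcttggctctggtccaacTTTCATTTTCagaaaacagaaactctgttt

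Isg15 held 3 matches that overlap each other, beginning 78 bases before the start site. Ifit1 and Ifit3 held 2 separate matches each, the outermost beginning 104 and 156 bases before the start. The single match of Rsad2 began 120 bases and that of Stat2 222 bases before the start. No match lay in the window of Ifit2, Irf7 or Oasl2, which says only that these letters are absent there. A second element, the gamma-activated site, was searched as TTCNNNGAA, which reads the same on both strands. It was found in 1 of the 8 genes, Ifit2, against 8.13% of all genes with a promoter.

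The interferon-stimulated genes were expressed at low to moderate levels, and none differed between ages by the tests used. Averaged over 15 mice, Irf7 (9.45 FPKM) and Stat2 (9.34 FPKM) were the most abundant. Rsad2 (4.08 FPKM), Usp18 (3.24 FPKM), Oasl2 (3.08 FPKM), Ifit3 (2.74 FPKM) and Ifit1 (2.30 FPKM) were intermediate, and Ifit2 (1.03 FPKM) and Isg15 (0.742 FPKM) were lowest. The values of neighbours in this order overlapped between mice. At 24 against 3 months, 8 genes had a higher and 1 a lower fitted level, with a median log2 fold change of 0.32 against 0.02 over all 31755 genes tested, of which 63% were above 0. None of the 9 had an unadjusted p under 0.05 (limma), where 14.9% of all genes did. None passed that p together with an absolute log2 fold change above 1 (0.523% of all genes), and none had an adjusted p under 0.05 (1.22%). The values of the 2 ages overlapped for every member. Kidney tissue of mixed cell types was sequenced, and which part of the kidney each piece came from is not given in the sources used here, so fewer cells of a type and less RNA per cell cannot be told apart in any of these values.

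**Figure D1:**
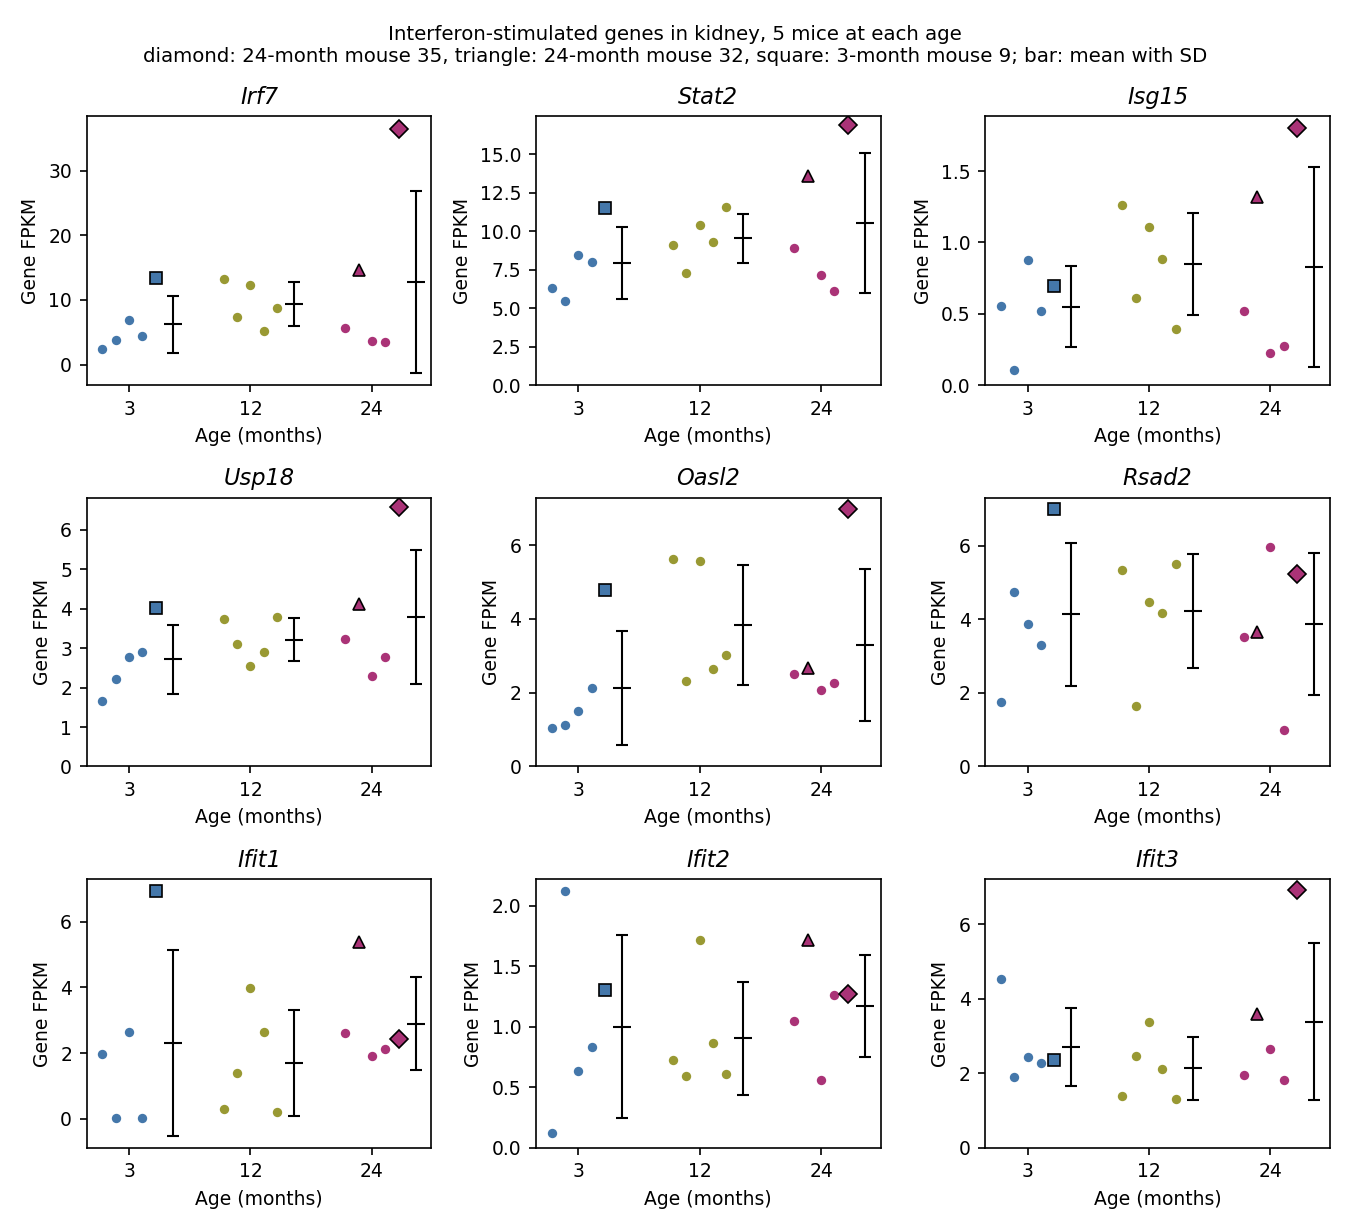
Gene FPKM (vertical axis) of the 9 interferon-stimulated genes in each mouse by age in months (horizontal axis), 5 mice at each age, with the mean and SD as a bar. The ages overlap in every panel, and 24-month mouse 35 (diamond) is highest of 15 for 6 genes, Irf7 at 36.5 FPKM among them.

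The 2 transcription factors spread to a different extent between mice. Irf7 (ENSMUSG00000025498) lies on chromosome 7 at 141262706 to 141266481 of GRCm38, on the minus strand. Its level at 3 months was 2.39, 3.84, 6.89, 4.49 and 13.4 FPKM in mice 5 to 9. At 12 months it was 13.3, 7.36, 12.3, 5.26 and 8.69 FPKM in mice 17 to 21. At 24 months it was 5.64, 14.6, 3.59, 3.47 and 36.5 FPKM in mice 31 to 35. Mouse 35 was thus far above the other 24-month mice, of which 3 lay within the range of the young. The log2 fold change from 3 to 24 months was 0.59 (95% confidence interval -0.82 to 2.0, limma adjusted p = 0.682), and it was 0.10 without mouse 35. Stat2 (ENSMUSG00000040033, chromosome 10 at 128270559 to 128292849, plus strand) varied less. It measured 6.34, 5.44, 8.44, 8.01 and 11.5 FPKM at 3 months. The 12-month mice had 9.08, 7.31, 10.4, 9.28 and 11.6 FPKM, and the 24-month mice had 8.89, 13.6, 7.18, 6.14 and 16.9 FPKM. Mouse 35 was again highest and mouse 32 second, while mouse 9 led the 3-month group. The difference of 24 against 3 months was 0.32 on the log2 scale (95% confidence interval -0.30 to 0.94, limma adjusted p = 0.662).

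Isg15 and the protease that removes its product from proteins, Usp18, were measured at very different depth. Isg15 (ENSMUSG00000035692, chromosome 4 at 156199424 to 156200818, minus strand) had a median of 3.02 kb of aligned bases per mouse and is the least precisely measured member. Its 3-month levels were 0.555, 0.107, 0.878, 0.516 and 0.696 FPKM. The 12-month levels were 1.26, 0.608, 1.11, 0.884 and 0.39 FPKM, and the 24-month levels were 0.518, 1.32, 0.222, 0.271 and 1.80 FPKM. Mice 35 and 32 stood above the other 24-month mice, of which 2 were below every young mouse but 1. The mean was 0.55 ± 0.285 FPKM at 3 months and 0.827 ± 0.701 FPKM at 24 months (SD, n = 5). Usp18 (ENSMUSG00000030107, chromosome 6 at 121245906 to 121270917, plus strand) had the smallest SD of log2(FPKM + 1) within ages, 0.35. Relative to the mean FPKM, its SD was slightly larger than that of Stat2 at each age. Usp18 measured 1.66, 2.21, 2.78, 2.89 and 4.02 FPKM at 3 months. It measured 3.74, 3.10, 2.54, 2.91 and 3.80 FPKM at 12 months, and 3.22, 4.12, 2.29, 2.77 and 6.57 FPKM at 24 months. Mouse 9 led the young and mouse 35 the old. Its log2 fold change from 3 to 24 months, 0.34 (95% confidence interval -0.21 to 0.88), had the smallest adjusted p of the 9 genes (0.577, limma).

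Oasl2 and Rsad2 encode further antiviral proteins. Oasl2 (ENSMUSG00000029561, chromosome 5 at 114896936 to 114912234, plus strand) belongs to the oligoadenylate synthetase family, whose members sense double-stranded RNA. It measured 1.04, 1.13, 1.51, 2.13 and 4.78 FPKM at 3 months. At 12 months it measured 5.62, 2.31, 5.57, 2.63 and 3.02 FPKM, and at 24 months 2.5, 2.67, 2.07, 2.27 and 6.97 FPKM. Without mouse 9, all 12-month mice would lie above all 3-month mice, and mouse 35 stood alone at 24 months. Rsad2 (ENSMUSG00000020641, chromosome 12 at 26442746 to 26456452, minus strand) was the only member with a lower fitted level at 24 than at 3 months. Its levels were 1.75, 4.75, 3.88, 3.29 and 7.00 FPKM at 3 months, 5.34, 1.64, 4.47, 4.16 and 5.51 FPKM at 12 months and 3.52, 3.65, 5.97, 0.98 and 5.24 FPKM at 24 months. The 3 ages covered nearly the same range, and the log2 fold change of 24 against 3 months was -0.11 (95% confidence interval -0.95 to 0.73, limma adjusted p = 0.907).

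The 3 IFIT genes are neighbours on chromosome 19, all on the plus strand, in the order Ifit2 (ENSMUSG00000045932, 34550694 to 34576419), Ifit3 (ENSMUSG00000074896, 34583531 to 34588731) and Ifit1 (ENSMUSG00000034459, 34640871 to 34650009). Ifit1 varied more than any other member. It measured 1.97, 0.0285, 2.63, 0.0116 and 6.93 FPKM at 3 months, 0.283, 1.38, 3.98, 2.64 and 0.202 FPKM at 12 months and 2.60, 5.40, 1.92, 2.13 and 2.43 FPKM at 24 months. In the lowest library its level rested on 0.155 kb of aligned bases. All 24-month mice were above 1.9 FPKM, whereas 2 mice at each younger age were below 0.3 FPKM. The log2 fold change of 24 against 3 months was 0.60 (95% confidence interval -0.64 to 1.85, limma adjusted p = 0.662). Ifit2 measured 0.123, 2.12, 0.635, 0.832 and 1.30 FPKM at 3 months, 0.725, 0.596, 1.72, 0.868 and 0.611 FPKM at 12 months and 1.05, 1.72, 0.559, 1.26 and 1.27 FPKM at 24 months. The youngest group held both the highest and the lowest value. Ifit3 measured 4.54, 1.9, 2.45, 2.28 and 2.36 FPKM at 3 months, 1.39, 2.46, 3.37, 2.11 and 1.32 FPKM at 12 months and 1.96, 3.58, 2.66, 1.81 and 6.93 FPKM at 24 months. Mouse 5 was high for Ifit3 although it was the lowest of 15 mice for Ifit2, Usp18, Irf7 and Oasl2. Ifit3 shares reads with its near-identical neighbour Ifit3b. Of the 100-base windows of its annotated transcript, 31.7% also occur in Ifit3b, so the division between the pair is uncertain. For Ifit1 3.29% of windows occur in Ifit1bl2, and the other 7 members shared none with another gene.

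The 12-month kidneys gave the same picture. At 12 against 3 months, 6 members had a higher and 3 a lower fitted level, with a median log2 fold change of 0.21 against 0.022 over 31637 genes. This median was 0.09 without mouse 5 and 0.32 without mouse 9. No member had an unadjusted p under 0.05 (14.3% of all genes), passed that p together with an absolute log2 fold change above 1 (0.499%) or had an adjusted p under 0.05 (0.25%). The smallest p was that of Oasl2, whose mean was 3.83 ± 1.63 FPKM at 12 months and 2.12 ± 1.55 FPKM at 3 months (SD, n = 5). Its log2 fold change was 0.68 (95% confidence interval -0.04 to 1.41, limma adjusted p = 0.375). Mouse 9 bore on this comparison. Without it, 3 members had an unadjusted p under 0.05, namely Oasl2 (log2 fold change 0.93), Irf7 (0.94) and Stat2 (0.39), and their limma adjusted p-values were 0.173, 0.231 and 0.306. Without the same mouse, 2 members had an unadjusted p under 0.05 at 24 against 3 months, Ifit1 (1.03) and Oasl2 (0.73), with limma adjusted p-values of 0.346 and 0.304. At 24 against 12 months, 5 members were higher and 4 lower, with a median of 0.06 against -0.001 over 32282 genes. It ranged from -0.12 without mouse 35 to 0.21 without mouse 33, and it was also below 0 without mouse 18 or 32. None passed the unadjusted limit (6.43% of all genes), that limit together with an absolute log2 fold change above 1 (0.17%) or the adjusted limit (0.0031%). The comparisons share mice and are not independent of each other.

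**Figure D2:**
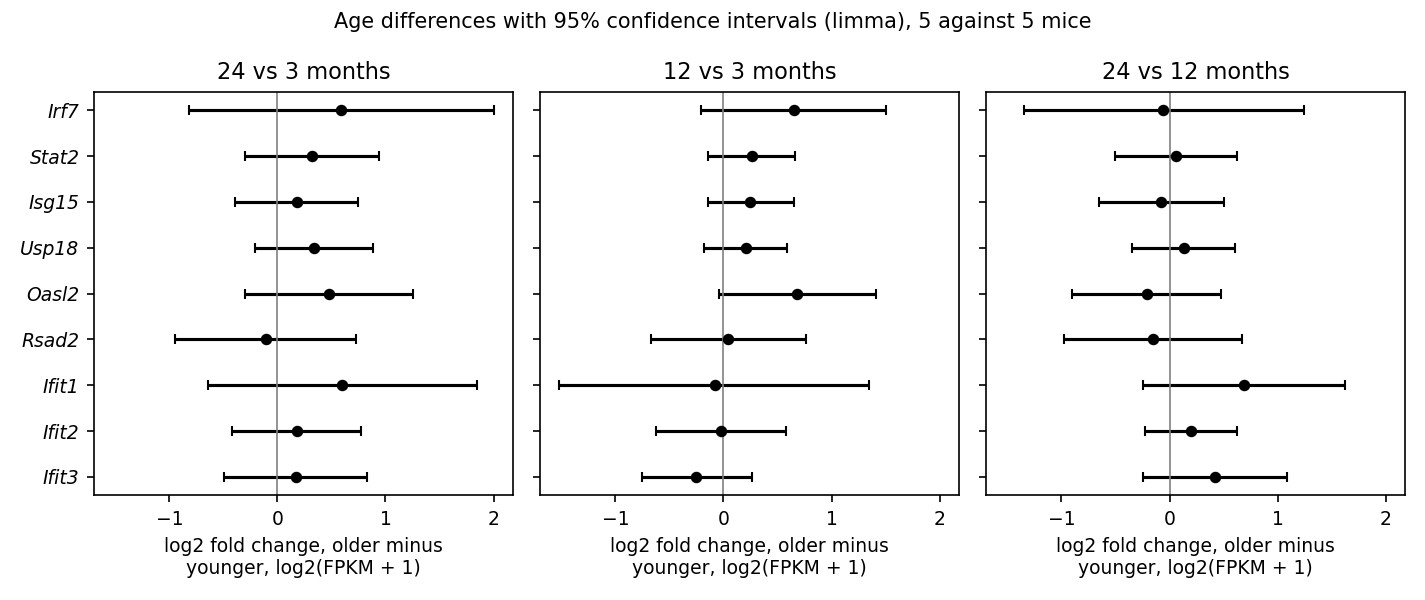
Fitted log2 fold changes (older minus younger, on log2(FPKM + 1), horizontal axis) of the 9 genes (vertical axis) with 95% confidence intervals from limma in the 3 comparisons of 5 against 5 mice. Every interval includes 0, and that of Oasl2 at 12 against 3 months comes closest to leaving it out (-0.04 to 1.41).

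Differences between mice of the same age were large beside those between ages. The SD of log2(FPKM + 1) within ages was 0.94 for Ifit1, 0.93 for Irf7, 0.61 for Rsad2 and 0.55 for Oasl2. It was between 0.35 and 0.46 for the other 5 members. The median over all 13780 genes with a mean of 0.5 to 20 FPKM was 0.25, and all 9 members were above it. Ifit1 and Irf7 were each above 97.1% of these genes. At 24 months Irf7 spanned a 10.5-fold range between mice of identical age and Stat2 a 2.75-fold range.

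The same few mice were high for several members. With each gene standardised over the 15 mice, the mean of the 9 genes was 1.64 SD in mouse 35, 0.85 SD in mouse 32 and 0.77 SD in mouse 9, and it was lowest in mouse 5 at -0.90 SD. Mouse 35 was the highest of all for 6 members, and mouse 9 was the highest of its age for 6. Mouse 32 was among the 3 highest for 7 members. Mice 33 and 34, also 24 months old, were among the 3 lowest for 4 and 5 members. The 24-month group thus held the highest mice beside low ones. Without mouse 35 the median log2 fold change of the members at 24 against 3 months was 0.14 and 6 of them were higher, in place of 0.32 and 8. Without mouse 32 the median was 0.21. Mouse 35 had 7.00 Gb of aligned bases, the median of its age. Its macrophage markers (6 genes, none at 0 in all mice) summed to 57.5 FPKM, the highest at 24 months, where the range was 19.8 to 57.5. The highest sum of all mice was 64.5 FPKM in 12-month mouse 18, whose mean over the members was -0.42 SD, and mouse 17 had 51.3 FPKM with a mean of 0.20 SD. The leukocyte marker Ptprc measured 5.14 FPKM in mouse 35, within the 24-month range of 3.24 to 5.87. Mice 32 and 9 had macrophage sums of 36.5 and 31.7 FPKM. Over the 15 mice, with the mean of each age removed, the macrophage sum and the mean of the members had a Pearson r of 0.48. It was 0.38 for Ptprc, 0.37 for T cell and 0.36 for endothelium markers. Over the 14 lists of cell type markers r ran from -0.16 (podocyte) to 0.83 (plasmacytoid dendritic cell, a sum that was mostly the interferon-stimulated gene Bst2). The part of macrophages or other cell types in these differences between mice was not tested.

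**Figure D3:**
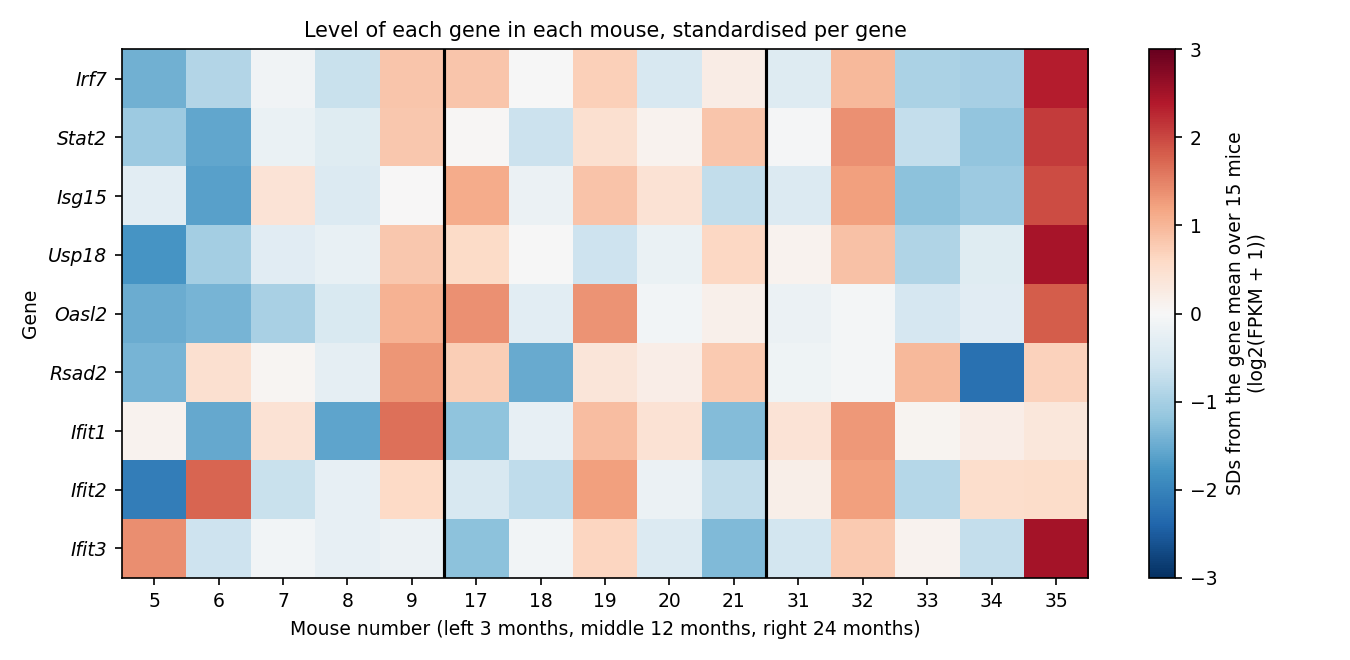
Level of each gene (rows) in each mouse (columns, grouped by age), as SDs from the mean of the gene over 15 mice on log2(FPKM + 1). Mouse 35 at 24 months is red for most genes (mean 1.64 SD), and mice 5, 6 and 34 are blue for most (means of -0.90, -0.71 and -0.69 SD).

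Whether the members moved together was measured over the 15 mice after the mean of each age had been removed, so that age itself could not produce a correlation. Over the 36 pairs of members the median Pearson r was 0.42, from -0.06 to 0.89. Between the members other than Isg15 and the 13438 other genes with a mean of at least 1 FPKM the median was 0.02. Of these pairs 5.08% exceeded 0.5, against 14 of the 36, which include those of Isg15. After Benjamini-Hochberg adjustment over the 36 pairs, 9 pairs had a p under 0.05 for Pearson r and 8 of them for Spearman rho as well (permutation within ages, 2-sided). All 9 pairs were formed by Irf7, Stat2, Usp18, Oasl2 and Isg15. Irf7 and Stat2 had r = 0.89 and rho = 0.85, with adjusted permutation p-values of 0.00756 and 0.019 (unadjusted 0.00054 and 0.00138), and r was 0.78 without the 2 mice farthest from the median of Irf7. Irf7 and Usp18 had r = 0.89 and rho = 0.84, with adjusted permutation p-values of 0.00756 and 0.019 (unadjusted 0.00063 and 0.00158). For this pair r was 0.74 without the 2 mice farthest from the median of Usp18. Irf7 and Oasl2 had r = 0.85 and rho = 0.80, with adjusted permutation p-values of 0.00576 and 0.0036 (unadjusted 0.00016 and 0.0001). Here r was 0.66 without the 2 mice farthest from the median of Irf7. Usp18 and Oasl2 fell furthest on leaving out 2 mice among these 9 pairs, from 0.75 to 0.39, and that relation rests in part on those mice.

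No pair with an IFIT gene or Rsad2 passed the adjusted limit. Rsad2 had r = 0.57 with Stat2, 0.53 with Oasl2 and 0.52 with Irf7 (adjusted permutation p-values of 0.15, 0.157 and 0.223). Among Ifit1, Ifit2, Ifit3 and Rsad2 the 6 pairs had a median r of 0.10 and a highest of 0.39. Ifit2 and Ifit3, which lie side by side, had r = -0.06 and rho = 0.05, with unadjusted permutation p-values of 0.822 and 0.864. Ifit3 and Isg15 had r = 0.65 and rho = 0.59 with unadjusted permutation p-values of 0.031 and 0.0555, but not after adjustment. This grouping of the members was made after their values were seen and was itself not tested.

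**Figure D4:**
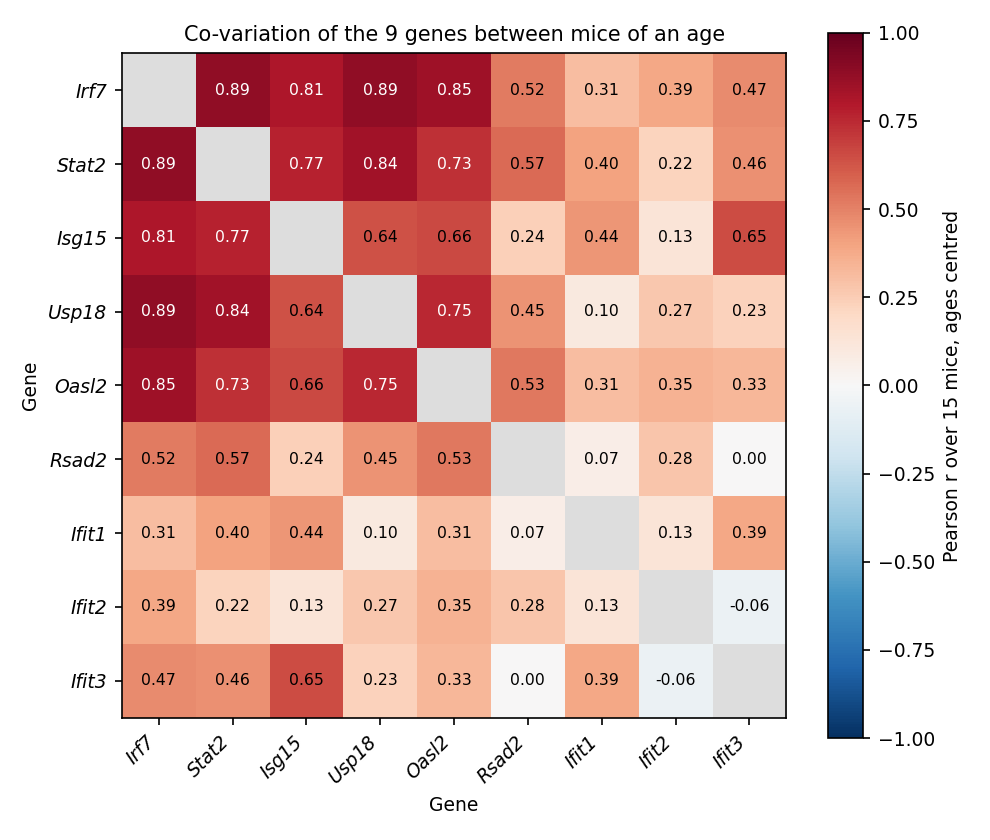
Pearson r (colour and printed value) between each 2 of the 9 genes over 15 mice, on log2(FPKM + 1) with each age centred. The upper left block of Irf7, Stat2, Isg15, Usp18 and Oasl2 runs from 0.64 to 0.89, and the lower right block of Rsad2 and the IFIT genes from -0.06 to 0.39.

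The genes most like the mean of the 9 members over the 15 mice, ages centred, were largely further interferon-stimulated genes. The 10 highest of 13438 were the oligoadenylate synthetase genes Oas1b, Oasl1 and Oas1a (r = 0.92 each), then Phf11b and Ifit3b (0.91 each), Xaf1 and Gbp6 (0.90 each) and the RNA sensor Ifih1, Parp12 and Ifi213 (0.88 each). Ifit3b shares sequence with Ifit3, and the Oas1 genes are close copies of each other, so the division of reads within these families is uncertain. Of the 35 other type I interferon-stimulated genes compared, 26 had r above 0.5 and the median was 0.79. Among the type II interferon-induced GTPases and immunoproteasome genes, 14 of 19 had r above 0.5, with a median of 0.62. Over all genes 4.87% were above 0.5, with a median of 0.03. For the receptor chains 0 of 6 were above 0.5.

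The rest of the pathway was followed with 8 lists of 126 genes. Of the interferon genes themselves 12 of 21, Ifnb1 among them, had no entry among the 33058 genes summed. No level was therefore given for them in any of the 15 mice. Ifnk had the highest level of the list, 1.38 FPKM on average with a value in 15 mice, and Ifng reached at most 0.0951 FPKM. At 24 against 3 months, 14 of the 113 list genes tested were higher at an unadjusted p under 0.05 and 0 lower (limma), where 11.4% of all genes were higher and 3.47% lower. That share of higher genes is close to the background. The median log2 fold change of the 113 genes was 0.19. The 14 came from 6 of the lists, with 5 of 44 other type I interferon-stimulated genes, 3 of 8 limiters of the response, 2 of 10 kinases and transcription factors, 2 of 14 sensors, 1 of 6 receptor chains and 1 of 20 type II genes. Without mouse 9 the count was 29, and with a library covariate (the upper quartile of gene FPKM in each library) it was 7. At 12 against 3 months, 21 of 113 were higher and 4 lower, where 11.4% and 2.90% of all genes were. Without mouse 9 the 21 became 34, without mouse 6 they became 13, and with a library covariate also 13. At 24 against 12 months 3 of 111 were higher and 1 lower, where 6.43% of all genes passed in either direction.

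The list genes with an adjusted p under 0.05 were Irf8, Oas1c and Parp10. Irf8, a transcription factor of macrophages, dendritic cells and B cells, measured 4.69, 3.50, 5.70, 4.71 and 5.21 FPKM at 3 months. It measured 9.76, 13.9, 9.12, 7.56 and 8.62 FPKM at 24 months, above every young mouse. From 3 to 24 months the log2 fold change was 0.89 (limma adjusted p = 0.0346), and leaving out a mouse raised the adjusted p above 0.05 in 8 of 10 cases, to at most 0.0778. With a library covariate the limma adjusted p was 0.168. Mouse 35, the highest for most members, was not the highest for Irf8. The B and plasma cell markers summed to between 1.23 and 3.92 FPKM at 3 months and between 4.62 and 13 FPKM at 24 months. All 5 had an unadjusted p under 0.05 (limma), where 14.9% of all genes did. Of the macrophage markers 0 of 6 did, and of the plasmacytoid dendritic cell markers 1 of 3. The part of these cell types in the Irf8 difference was not tested. Oas1c, an oligoadenylate synthetase gene, was at 0.844 ± 0.155 FPKM in the 3-month and 1.73 ± 0.192 FPKM in the 24-month mice (SD, n = 5). Its log2 fold change was 0.57 (limma adjusted p = 0.0362). Its adjusted p was above 0.05 without any 1 of the 10 mice, up to 0.0826, and 0.0823 with a library covariate. Parp10 rose from 3.02 ± 0.338 FPKM at 3 months to 5.62 ± 0.846 FPKM at 12 months (SD, n = 5). On the log2 scale it differed by 0.71 (limma adjusted p = 0.0448). That call was lost in 9 of 10 cases on leaving out a mouse, at an adjusted p of at most 0.0988, and also with TPM (0.0524), a robust prior (0.0547), annotated transcripts only (0.0693) and the library covariate (0.0963). At 24 months Parp10 was at 5.75 ± 1.60 FPKM (SD, n = 5), with a limma adjusted p of 0.0657 against 3 months.

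In the lists without such a gene, the smallest unadjusted p belonged to genes with modest differences. Ifngr2, a chain of the interferon gamma receptor, differed by 0.52 on the log2 scale at 12 against 3 months (limma adjusted p = 0.147). Mb21d1, which encodes the DNA sensor cGAS, differed by 0.19 at 24 against 3 months (limma adjusted p = 0.0854), at a level of only 0.271 FPKM in the old mice. Uba7, the enzyme that activates ISG15 for conjugation, differed by 0.36 at 12 against 3 months (limma adjusted p = 0.154) and Ciita, the driver of MHC class II genes, by 0.47 (limma adjusted p = 0.218). Socs1, an inhibitor of JAK kinases, differed by 0.13 at 24 against 3 months (limma adjusted p = 0.188), below 0.2 FPKM on average at both ages. Among the interferon genes the smallest p was that of Ifna13, which was above 0 in 3 mice and reached at most 0.105 FPKM, with a difference of 0.06 at 24 against 3 months (limma adjusted p = 0.471). None of these passed the adjusted limit.

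Irf9 encodes the DNA-binding partner of STAT2 and was measured in the same mice. It was at 2.17 ± 1.32 FPKM at 3 months and 1.35 ± 0.618 FPKM at 24 months (SD, n = 5). This is a log2 fold change of -0.36 (limma adjusted p = 0.662).

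The transcripts behind each gene sum were checked in turn. Ifit1 and Isg15 were each measured through a single annotated protein-coding transcript. The main protein-coding transcript held 62.8% of Usp18, 59.3% of Rsad2, 56.3% of Oasl2, 54.3% of Ifit2, 45.6% of Stat2 and 42.8% of Irf7. For Ifit3 the main contributor was MSTRG.18091.1, an assembled transcript of 2351 bases with 76.4% of the FPKM, and the annotated transcript held 8.54%. Transcripts annotated as retained introns took 16.0%, 15.7% and 6.20% of Stat2, 17.6% and 6.76% of Usp18, 10.5% of Irf7 and 6.24% of Oasl2, counting those with at least 5%. Counting annotated transcripts only reversed the fitted direction of 24 against 3 months for Ifit2 (-0.16), Ifit3 (-0.40) and Rsad2 (0.10), without any of them passing the test. Usp18 also had 5 assembled antisense transcripts, each at 0 in 8 to 13 of the 15 mice, and these were not part of its sum.

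Circular RNAs gave the only age call at a member's locus. Of 11929 circular RNAs 4 came from members, 2 from Usp18, 1 from Stat2 and 1 from Rsad2. They were tested with edgeR on the deposited estimated counts. The exonic circle circRNA9045 joins 6 exons of Usp18 (chromosome 6, 121253762 to 121262826). Its estimated counts were 118, 151, 128, 132 and 180 at 3 months, 260, 266, 224, 134 and 262 at 12 months and 257, 247, 179, 230 and 406 at 24 months. All 24-month mice except mouse 33, at 179, were above all young mice. The log2 fold change of 24 against 3 months was 0.73 (edgeR adjusted p = 0.0279), where 13.3% of all circular RNAs were called, so 1 call among 4 is not a result about the members. The call was lost without mouse 7, 8 or 35 (adjusted p = 0.0608, 0.0656 and 0.0524). Its log2 fold change at 12 against 3 months was 0.50 (edgeR adjusted p = 0.0711), where 6.63% of circular RNAs were called, and without mouse 9 it was 0.63 and called (edgeR adjusted p = 0.0322). At 24 against 12 months it was 0.22 (edgeR adjusted p = 0.56), where 0.738% were called.

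The other 3 circles were not called. The intronic circle ciRNA566 of Usp18 had 8.80 ± 2.28 counts at 3 months and 16.6 ± 4.67 counts at 24 months (SD, n = 5). Its log2 fold change was 0.75 (edgeR adjusted p = 0.0667), and without mouse 6 it was 0.89 and called (edgeR adjusted p = 0.0462). The Stat2 circle circRNA2491 gave 0.11 (edgeR adjusted p = 0.872), and ciRNA826 within Rsad2 gave -0.48 (edgeR adjusted p = 0.381). Mouse 35 had the most counts for ciRNA826 (345), circRNA2491 (143) and circRNA9045 (406). It also had the highest linear level of Stat2 and Usp18, but not of Rsad2, which was 5.24 FPKM in mouse 35 and highest in mouse 9 (7.00 FPKM). A test of the difference between linear and circular change at Usp18 was not run.

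**Figure D5:**
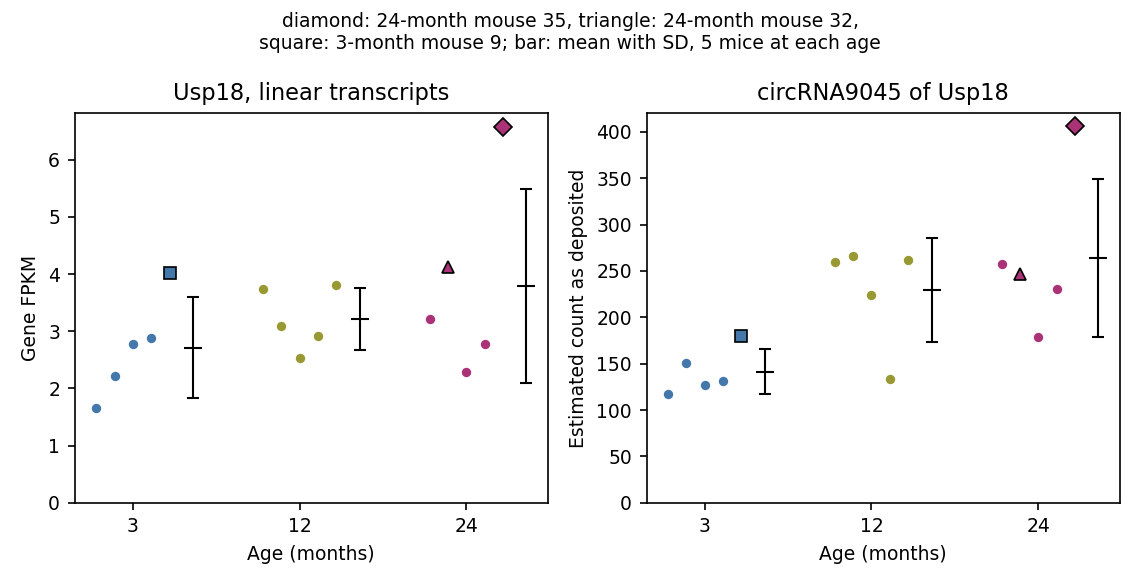
Usp18 in each mouse by age in months (horizontal axis): gene FPKM of linear transcripts (left) and deposited estimated count of circRNA9045 (right), with the mean and SD of 5 mice as a bar. Mouse 35 (diamond) is highest in both panels, at 6.57 FPKM and 406 counts.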

How the data were processed

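Kidney RNA of 15 mice, 5 at each of 3 ages, was analysed. The authors assembled transcripts with StringTie against GRCm38 and deposited FPKM and mean coverage for 129029 transcripts, and the deposited estimated counts of circular RNAs came without a stated method. The study's methods name HISAT2 for alignment and the submitters' processing notes TopHat. Gene levels were sums of FPKM over annotated, contained, junction-sharing and exon-overlapping transcripts. Aligned bases were taken from coverage times length. Genes were compared on log2(FPKM + 1) with limma 3.58.1 (trend) in R 4.3.3, fitted and Benjamini-Hochberg adjusted over all genes above 0 in at least 1 mouse compared. Estimated counts were rounded and tested with edgeR 4.0.16 (circles above 0 in at least 5 of 10 mice), with DESeq2 1.42.0 as alternative. Correlations used 100000 permutations within ages. The steps were tested on simulated data. FPKM is relative to the whole library, and because gene levels rest on FPKM and coverage, no counting interval was computed for them; precision is the spread between mice.

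The 9 members, the lists and the tests were chosen with earlier results of these data known. Named genes were the members, list genes with an adjusted p under 0.05 or else the smallest p (at most 4 a list), the 10 genes most like the members and transcripts with at least 5% of a member. Irf9, Ifnk and Ifng were named after their values were seen, and Ifnb1 after it was seen to have no entry. The circular RNA tests were added after the files were seen. Alternatives were TPM, a pseudocount of 0.1, a minimum mean of 1 FPKM, 1 fit of all mice, a robust prior, annotated transcripts only, a library covariate and each mouse left out. The library covariate was log2 of the upper quartile of the gene FPKM above 0 in a library, and so neither depth nor a batch. That the mice are separate animals follows from their labels.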

Additional observations from a re-analysis of the deposited data

Results flagged for a closer look

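Within each age the highest or lowest of 5 values was compared with its neighbours by the ratio of its gap to the whole range (critical value 0.71). Of 39 groups of 5 values, 4 exceeded it. Chance gives about 1 in 20 for independent normal values, which the levels of genes that vary together in the same mice are not. Oasl2 was 6.97 FPKM in mouse 35 at 24 months, with the next mouse at 2.67 FPKM. Ifit1 was 5.40 FPKM in mouse 32 at 24 months, with the next at 2.60 FPKM. Ifit3 was 4.54 FPKM in mouse 5 at 3 months, with the next at 2.45 FPKM. Ifit2 was 1.72 FPKM in mouse 19 at 12 months, with the next at 0.868 FPKM. The 4 values came from 4 different mice, and their cause was not tested.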

How the results depend on the processing

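No paired analysis was possible because the ages share no replicate numbers. Over 456 refits of single members under the alternatives, 405 kept their direction and their side of the unadjusted threshold of 0.05, 8 newly passed it, 43 changed direction and 0 reached an adjusted limma p under 0.05 (smallest 0.173). The cause of these changes was not tested. With annotated transcripts only, the log2 fold change of 24 against 3 months became -0.16 for Ifit2, -0.40 for Ifit3 and 0.10 for Rsad2. For 12 against 3 months it became 0.21 for Ifit2, and at 24 against 12 months -0.38 for Ifit2 and -0.04 for Ifit3. With the library covariate it became -0.15 for Ifit1 and 0.39 for Rsad2 at 24 against 3 months, 0.12 for Ifit2 at 12 against 3 months and 0.18 for Rsad2 at 24 against 12 months. For 12 against 3 months the pseudocount of 0.1 gave 0.35 for Ifit1 and 0.12 for Ifit2, with 1 member (Oasl2) at an unadjusted p under 0.05, and TPM gave 0.11 for Ifit1 and 0.02 for Ifit2. TPM and the other pseudocount moved the median of all genes by less than 0.1.

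Leaving out each mouse in turn, the number of members with an unadjusted p under 0.05 ranged from 0 to 2 at 24 against 3 months, from 0 to 3 at 12 against 3 months and from 0 to 1 at 24 against 12 months. At 24 against 3 months the log2 fold change ranged from -0.01 to 0.36 for Ifit2, from -0.07 to 0.33 for Ifit3 and from -0.31 to 0.18 for Rsad2. At 12 against 3 months it ranged from -0.40 to 0.34 for Ifit1, from -0.21 to 0.16 for Ifit2 and from -0.16 to 0.27 for Rsad2. At 24 against 12 months it ranged from -0.25 to 0.05 for Isg15, from -0.05 to 0.25 for Usp18, from -0.55 to 0.22 for Irf7, from -0.12 to 0.21 for Stat2, from -0.38 to 0.14 for Rsad2 and from -0.11 to 0.12 for Parp10. For the circular RNAs, whose alternatives were chosen after seeing the data as were those of Irf8, Oas1c, Parp10 and the pathway lists, circRNA2491 ranged from -0.12 to 0.31, from -0.04 to 0.32 and from -0.24 to 0.14 in the 3 comparisons. ciRNA826 ranged from -0.12 to 0.19 at 12 against 3 months. DESeq2 called circRNA9045 at 12 against 3 months too (0.50, adjusted p = 0.037). Over all genes, an adjusted p under 0.05 was reached by 386 genes at 24 against 3 months, by 678 with 1 fit of all mice and by 32 with the library covariate. The corresponding counts at 12 against 3 months were 79, 299 and 32, and at 24 against 12 months 1, 0 and 1. Leaving out each mouse in turn, these counts ranged from 109 to 411, from 12 to 70 and from 1 to 7. The median correlation between members was 0.42, and it ranged from 0.38 to 0.50 under all alternatives. Low levels, such as those of Isg15 and Ifit2, limit what can be read from single mice.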

Other observations

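The plasmacytoid dendritic cell markers, cells known as a main source of type I interferon, summed to between 1.93 and 11.8 FPKM at 3 months, 3.79 and 11.6 FPKM at 12 months and 4.16 and 30.5 FPKM at 24 months. Most of this was Bst2 in every mouse, which interferon also induces and which is on the list of interferon-stimulated genes as well. Bst2 measured 29.6 FPKM in mouse 35, 11 FPKM in mouse 9 and 7.09 FPKM in mouse 32. The more specific markers Siglech and Ccr9 were at 0.204 and 0.725 FPKM in mouse 35, and each was higher than that in at least 1 other mouse. Ccr9 averaged 0.756 FPKM at 24 months and 0.480 FPKM at 3 months (limma unadjusted p = 0.02, adjusted p = 0.227). At 12 months Ccr9 averaged 0.586 FPKM (limma adjusted p = 0.723 against 3 months). Siglech averaged 0.348 FPKM at 12 months and 0.127 FPKM at 3 months (limma unadjusted p = 0.0468, adjusted p = 0.341). At 24 months Siglech averaged 0.147 FPKM (limma adjusted p = 0.865 against 3 months), so the 2 markers did not differ in the same comparison.

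Ifitm3, which restricts virus entry and was named after its values were seen, was the list gene that differed by more than 1 on the log2 scale with an unadjusted p under 0.05 at 12 against 3 months. It was at 7.91 ± 5.70 FPKM in the 3-month and 20.1 ± 4.05 FPKM in the 12-month mice (SD, n = 5). The log2 fold change was 1.43 (limma adjusted p = 0.127). At 24 months it measured 4.95, 22.4, 0.0923, 3.77 and 35.6 FPKM in mice 31 to 35. The mice at the 2 ends, 35 and 33, were also high and low for Irf7.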
